A study of Mus musculus with 6 samples.

Results

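Genes of oligodendrocyte precursor cells and of myelin were followed in cultures of mouse cerebellar granule neurons (CGNs) that had been given GSK-126, an inhibitor of the histone methyltransferase EZH2, or its vehicle DMSO. The set had 31 genes of the 55341 listed in each count table, chosen by symbol for their known place in the oligodendrocyte lineage. Of these, 4 mark precursors, 6 mark committed and newly formed oligodendrocytes, 11 encode structural parts of the myelin sheath, 4 make myelin lipids or supply their acetyl groups, and 6 are other genes of mature oligodendrocytes. The neurons were prepared from the cerebellum of early postnatal CD1-IGS mice of both sexes on a Percoll gradient, with litters pooled for each replicate, and both groups also received AraC, which blocks the division of non-neuronal cells. DMSO or GSK-126 was added once on day 3 in vitro, as the labels give it, and by the study's methods RNA was taken on a later day. The dose of GSK-126 at this addition is not given in the sources used here, and the labels name the source as cerebellum although the titles name CGNs. There were 3 libraries of polyadenylated RNA in each group, numbered 1 to 3 in both, and libraries of the same number deviated together, so they were compared in pairs.

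Oligodendrocyte precursors carry the PDGF receptor alpha, encoded by Pdgfra, and the proteoglycan NG2, encoded by Cspg4, and divide in response to PDGF. When they leave the cell cycle they pass through a short committed stage marked by Gpr17 and Bcas1, switch on the transcription factor Myrf, and then make the proteins and galactolipids that compact their membranes into myelin around axons. EZH2 is the catalytic subunit of Polycomb repressive complex 2, which trimethylates lysine 27 of histone H3. This mark of silenced genes is found at promoters rich in the dinucleotide CG, and the study also found it in gene bodies and between genes. Precursors and oligodendrocytes arise outside the granule neuron lineage and reach a granule neuron culture as accompanying cells. In bulk RNA, fewer cells of a type and less RNA per cell cannot be told apart.

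The windows just before the gene starts of 5 members are shown because they hold very different numbers of CG dinucleotides: the precursor receptor genes Pdgfra and Cspg4, the committed-stage gene Cnksr3, and the myelin genes Cldn11 and Mag. Each runs 5′ to 3′ on the gene's own strand, from RefSeq on GRCm38.p6, with CG in capitals. The window of Pdgfra is chr5:75152001-75152250 on the plus strand, that of Cspg4 is chr9:56864854-56865032 on the plus strand, that of Cnksr3 is chr10:7212238-7212487 on the minus strand, that of Cldn11 is chr3:31149670-31149919 on the plus strand and that of Mag is chr7:30914874-30915113 on the minus strand. Those of Cspg4 and Mag are cut to 179 and 240 bases so that they stop before the GENCODE gene model.
Pdgfra: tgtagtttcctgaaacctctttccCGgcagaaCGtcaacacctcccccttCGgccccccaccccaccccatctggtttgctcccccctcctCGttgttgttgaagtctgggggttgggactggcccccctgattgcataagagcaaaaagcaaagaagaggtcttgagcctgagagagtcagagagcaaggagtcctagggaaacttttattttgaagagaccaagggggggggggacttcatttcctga
Cspg4: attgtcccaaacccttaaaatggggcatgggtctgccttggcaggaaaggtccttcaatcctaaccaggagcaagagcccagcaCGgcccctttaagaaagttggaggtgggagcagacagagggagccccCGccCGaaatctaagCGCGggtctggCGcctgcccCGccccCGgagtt
Cnksr3: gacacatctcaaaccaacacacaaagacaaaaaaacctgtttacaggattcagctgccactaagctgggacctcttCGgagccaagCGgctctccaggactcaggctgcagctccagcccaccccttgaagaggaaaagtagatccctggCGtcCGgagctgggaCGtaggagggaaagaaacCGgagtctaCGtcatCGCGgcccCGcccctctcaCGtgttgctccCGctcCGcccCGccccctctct
Cldn11: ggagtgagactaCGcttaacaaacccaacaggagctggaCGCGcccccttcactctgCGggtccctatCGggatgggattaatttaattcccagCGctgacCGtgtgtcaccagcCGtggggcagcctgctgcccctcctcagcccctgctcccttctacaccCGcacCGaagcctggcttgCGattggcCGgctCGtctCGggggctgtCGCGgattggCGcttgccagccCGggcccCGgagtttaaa
Mag: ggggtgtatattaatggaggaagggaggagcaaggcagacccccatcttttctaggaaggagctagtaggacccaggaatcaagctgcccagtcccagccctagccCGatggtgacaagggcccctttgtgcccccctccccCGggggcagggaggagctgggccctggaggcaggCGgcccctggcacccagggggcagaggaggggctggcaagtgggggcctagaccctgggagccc

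A window of 250 bases before the start was taken for 23 of the 31 members. Genes on chromosome 18 were not looked up, which left out Mbp and Gpr17. The windows taken held a median of 11 CG dinucleotides, against a median of 6 and quartiles of 2 and 16 over 32851 RefSeq windows of the same length. The 10 myelin sheath genes with a window ranged from 2 in Mog to 19 in Cldn11, with the other 8 inside the quartiles. Mag, Ermn and Gjc3 held 3, Mobp and Opalin 4, Mal 7, Pllp 12 and Cnp 13, and 37.8% of all windows held no more than the 3 of Mag. In turn, 19.7% of all windows held as many as Cldn11 or more. Among precursor genes, Pdgfra held 4, Lhfpl3 11 and Cspg4 12, of which 8 lie in the shorter stretch printed above. Cnksr3 held 14. The windows precede the RefSeq start, which can differ from the GENCODE start. Those of Aspa and Gpr37 lie inside the GENCODE gene model, and so does most of that of Tspan2. Several others, those of Cspg4 and Mag among them, reach into the gene model in part. For 19 of the 23 windows, the next 30 bases were found in a transcript of the gene. Pdgfra, Lhfpl3, Ugt8a and Aspa were the exceptions. The CG counts describe the letters only. No binding or methylation of these windows was analysed here.

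The libraries held 7407189 to 13092763 counts on genes, and levels are given as CPM, the count relative to the TMM-scaled library size, on which scale a single count is worth 0.0758 to 0.134 CPM. The named cell type was present: the 10 granule neuron markers summed to 3792 to 6114 CPM in DMSO and 3021 to 4689 CPM in GSK-126. Marker transcripts of accompanying cells were also abundant. The 11 astroglial markers summed to 2874 to 8578 CPM in DMSO and 2756 to 8878 CPM in GSK-126, the 8 fibroblast and meningeal markers to 7495 to 9884 CPM in DMSO and 8252 to 10603 CPM in GSK-126, the 8 pericyte and smooth muscle markers to 657 to 1064 CPM in DMSO and 997 to 1337 CPM in GSK-126 and the 9 microglial markers to 253 to 562 CPM in DMSO and 379 to 687 CPM in GSK-126. The 6 Schwann cell markers, which would stand for the other myelin-forming cell, summed to 4.38 to 6.90 CPM in DMSO and 6.25 to 9.88 CPM in GSK-126, with Foxd3 and Egr2 at 0 counts in all 6 libraries. Several members are also used by these other cells: Pdgfra by fibroblasts, Cspg4 by pericytes, Cldn11 by meninges, and Enpp2 and Trf by the choroid plexus, whose 6 markers, Ttr among them, summed to 251 to 517 CPM in DMSO and 245 to 450.0 CPM in GSK-126. Their part in the values below was not tested.

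Of the 31 members, 29 had enough counts to be tested. Without pairing, edgeR's quasi-likelihood test called 0 members higher and 0 lower at an adjusted p under 0.05, as it called 0% of all 16729 genes tested in either direction. At an unadjusted p under 0.05, it found 0 of the members, and 296 genes higher and 369 lower among all those tested. DESeq2 without pairing called 0 members, and 19 genes higher and 2 lower over all. With the replicate number as a block, Mbp was called higher and Cnksr3 lower. That is 1 of 29 in each direction, where the same fit called 3.35% of all genes higher and 5.09% lower, so the members were called about as often as genes in general. Over the tested members the median paired log2 fold change was 0.0031, beside -0.0056 over all genes. For 25 of the 29 the 95% interval of the paired log2 fold change lay within ±1, and for 16 within ±0.5. The GSK-126 and DMSO libraries did not overlap for 1 member, Qdpr, beside 9.44% of all genes tested.

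**Figure D1:**
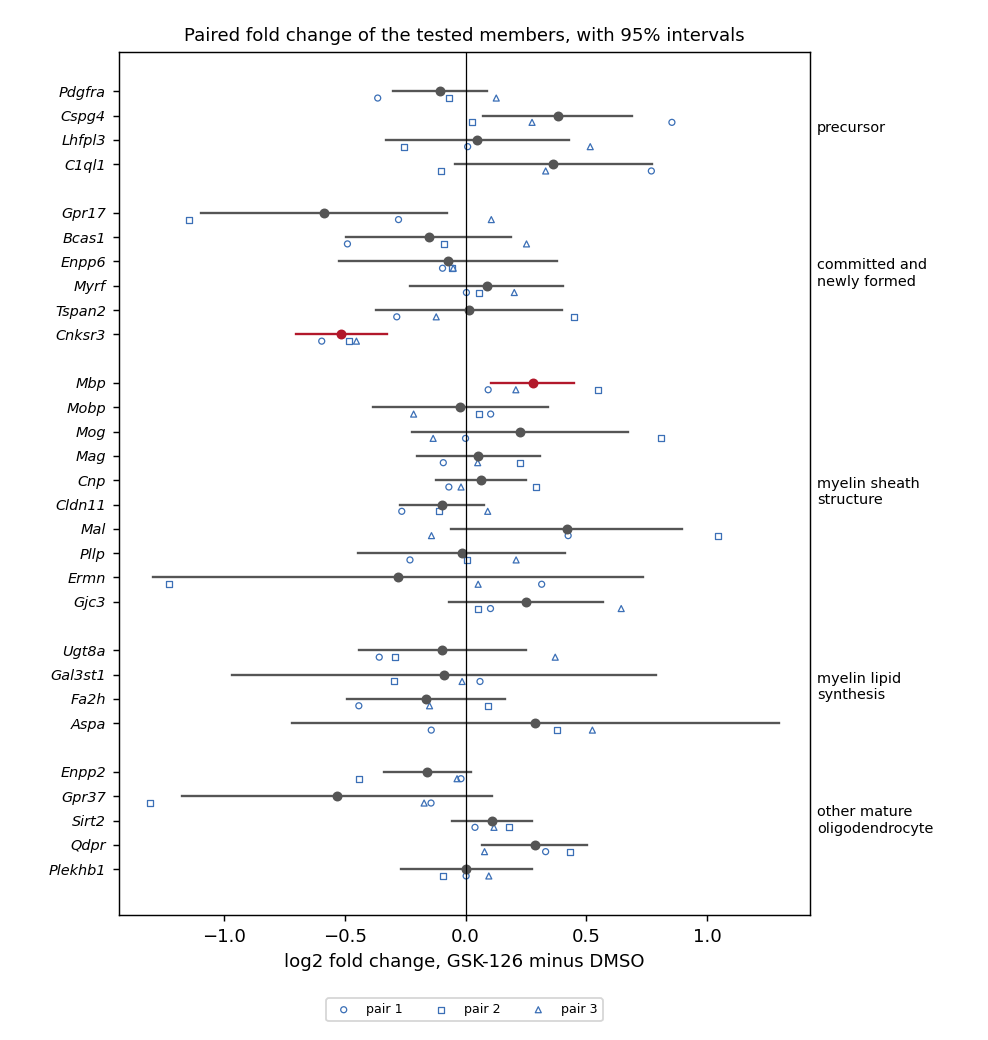
Paired log2 fold change (GSK-126 minus DMSO, x axis) of the 29 tested members, by role. Filled points and bars are the edgeR estimate with the replicate block and its 95% interval, red where the adjusted p is under 0.05, and open symbols are the 3 single pairs on the log2(CPM + 0.5) scale. Cnksr3 lies to the left and Mbp to the right of 0, and for most other members the interval spans 0.

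The precursor genes gave no call. Pdgfra, the receptor through which PDGF keeps precursors dividing, stood at 129.5, 76.2 and 85.96 CPM in DMSO replicates 1, 2 and 3 and 101, 72.7 and 93.9 CPM in the GSK-126 replicates of the same numbers. The 2 groups overlapped, and its paired log2 fold change was -0.11 ± 0.093 (SE, n = 3 pairs, 95% interval -0.30 to 0.088, adjusted p = 0.558). Cspg4 stood at 16.7, 27.5 and 28.5 CPM in DMSO replicates 1, 2 and 3 and 30.6, 28.002 and 34.6 CPM in the GSK-126 replicates of the same numbers. It was higher in GSK-126 in each of the 3 pairs, by 0.85, 0.025 and 0.27 on the log2(CPM + 0.5) scale, so the size of the difference rested mostly on pair 1. The paired log2 fold change was 0.38 ± 0.15 (SE, n = 3 pairs, adjusted p = 0.129), which did not pass the test. Of the pericyte and smooth muscle markers, 3 of 7 tested were called higher with the block and 0 lower, beside 3.35% and 5.09% of all genes. The sum of all 8 was 657, 782 and 1064 CPM in DMSO and 997, 1031 and 1337 CPM in GSK-126. None of the 8 was at 0. The part of these cells in the Cspg4 values was not tested. Lhfpl3, a tetraspan membrane protein gene of precursors, stood at 14.8, 20.9 and 5.74 CPM in DMSO and 14.9, 17.4 and 8.41 CPM in GSK-126, and C1ql1, a secreted C1q-like protein, at 12.3, 11.5 and 6.69 CPM in DMSO and 21.4, 10.7 and 8.55 CPM in GSK-126. Both were lowest in replicate 3 of each group, and their groups overlapped.

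Among the genes of committed and newly formed cells, Cnksr3 fell. This gene, which encodes a scaffold protein, lies at chr10:7119063-7212237 (GRCm38). It stood at 64.3, 111 and 61.2 CPM in DMSO replicates 1, 2 and 3 and 42.4, 79.6 and 44.6 CPM in the GSK-126 replicates of the same numbers. The groups overlapped, since replicate 2 was high in both, but GSK-126 was the lower library in each pair, with differences of -0.59, -0.48 and -0.45 on the log2(CPM + 0.5) scale. The paired log2 fold change was -0.51 ± 0.091 (SE, n = 3 pairs, adjusted p = 0.00092), a fold of 0.700, and -0.51 ± 0.31 (SE, n = 3, adjusted p = 0.953) without the block. It was called with any 1 pair left out, at adjusted p values from 0.00052 to 0.0137, and by DESeq2 with the block (adjusted p = 0.00159), which called 4.87% of the genes it tested lower. The granule neuron markers had the same layout: their sum was 3792, 6114 and 4430.0 CPM in DMSO and 3021, 4689 and 3482 CPM in GSK-126, highest in replicate 2 of both groups. With the block 6 of the 10 were called lower and 1 higher, beside 5.09% and 3.35% of all genes. None of the 10 was at 0. The part of the neurons in the Cnksr3 values was not tested.

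The other genes of this stage were not called. Gpr17, a receptor that marks the committed stage and is switched off before myelin is made, stood at 8.19, 22.003 and 2.69 CPM in DMSO replicates 1, 2 and 3 and 6.67, 9.69 and 2.94 CPM in the GSK-126 replicates of the same numbers. It was highest in replicate 2 and lowest in replicate 3 of both groups. The 2 libraries of replicate 2 differed by -1.14 on the log2(CPM + 0.5) scale, the other 2 pairs by -0.28 and 0.11, and the paired log2 fold change was -0.59 ± 0.24 (SE, n = 3 pairs, 95% interval -1.10 to -0.076, adjusted p = 0.162). It was chosen for description after its values were seen. The gene shares 188 bases of exon with Lims2 on the other strand, and whether strand was used in counting is not given. Larger overlaps with genes on the other strand were annotated for Pllp (1128 of 2083 exon bases), Pdgfra (622 of 10024), Lhfpl3 (567 of 3213), Bcas1 (474 of 3775), Enpp2 (345 of 5779), Qdpr (332 of 1788) and Ermn (237 of 3635), and reads of the 2 strands may not have been told apart there. Bcas1, an early myelin protein gene, stood at 27.1, 22.3 and 7.996 CPM in DMSO and 19.2, 20.9 and 9.62 CPM in GSK-126 and was lowest in replicate 3 of both groups. Myrf, the transcription factor that drives the myelin genes, stood at 17.99, 15.01 and 14.7 CPM in DMSO and 18.04, 15.6 and 16.96 CPM in GSK-126, a range of 1.23-fold over all 6 libraries. Enpp6, a choline phosphodiesterase used to mark newly formed oligodendrocytes, lay between 6.35 and 8.54 CPM and the tetraspanin gene Tspan2 between 10.4 and 14.4 CPM.

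In the myelin sheath, Mbp rose. It encodes myelin basic protein, which zips the inner faces of the membrane together. It stood at 332, 135 and 277 CPM in DMSO replicates 1, 2 and 3 and 354, 197 and 319 CPM in the GSK-126 replicates of the same numbers. GSK-126 was the higher library in each pair, by 0.093, 0.55 and 0.21 on the log2(CPM + 0.5) scale, while replicate 2 was the lowest of each group and the groups overlapped. The paired log2 fold change was 0.28 ± 0.082 (SE, n = 3 pairs, adjusted p = 0.0408), a fold of 1.21, and 0.23 ± 0.34 (SE, n = 3, adjusted p = 0.961) without the block. DESeq2 with the block also called it higher (adjusted p = 0.0455), beside 2.85% of the genes it tested. Without pair 2 the log2 fold change was 0.15 and the call was lost (adjusted p = 0.279). Gene counts pool the classic myelin transcripts of Mbp with its longer Golli transcripts, which neurons and immune cells also make, and these could not be told apart. Of the microglial markers, 4 of 9 were called higher with the block and 0 lower, beside 3.35% and 5.09% of all genes. Their sums were 562, 253 and 483 CPM in DMSO and 687, 379 and 561 CPM in GSK-126, and none was at 0. Their part in the Mbp values was not tested.

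The other sheath genes did not follow Mbp past the test. Mag, a glycoprotein of the membrane next to the axon, stood at 40.03, 19.8 and 31.5 CPM in DMSO replicates 1, 2 and 3 and 37.5, 23.2 and 32.6 CPM in the GSK-126 replicates of the same numbers, with a paired log2 fold change of 0.053 ± 0.12 (SE, n = 3 pairs, 95% interval -0.20 to 0.31, adjusted p = 0.853). Cnp, a phosphodiesterase that keeps cytoplasmic channels open in myelin, stood at 113, 64.8 and 92.3 CPM in DMSO replicates 1, 2 and 3 and 107, 79.4 and 91.1 CPM in the GSK-126 replicates of the same numbers, with a paired log2 fold change of 0.064 ± 0.089 (SE, n = 3 pairs, 95% interval -0.12 to 0.25, adjusted p = 0.742). Both were lowest in replicate 2 of each group, and neither interval reached ±0.5. Mog, a protein of the outermost myelin surface and a late marker, stood at 10.6, 6.06 and 10.6 CPM in DMSO replicates 1, 2 and 3 and 10.6, 10.99 and 9.62 CPM in the GSK-126 replicates of the same numbers. Only its DMSO replicate 2 was low, and the paired log2 fold change was 0.22 ± 0.21 (SE, n = 3 pairs, 95% interval -0.22 to 0.67, adjusted p = 0.597). Cldn11, which seals the myelin layers with tight junctions, had the highest level per exon length of all members and was added to these genes for that reason. It stood at 248, 70.5 and 123 CPM in DMSO replicates 1, 2 and 3 and 207, 65.3 and 131 CPM in the GSK-126 replicates of the same numbers, with a paired log2 fold change of -0.099 ± 0.083 (SE, n = 3 pairs, 95% interval -0.27 to 0.075, adjusted p = 0.54). Its 2 groups matched each other library by library, and within each group it spanned more than that difference. Of the remaining sheath genes tested, Mobp, Mal, Pllp, Ermn and Gjc3 lay between 0.431 and 32.7 CPM, and none was called.

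Myelin lipid genes and other mature genes gave no call. Ugt8a, which makes galactosylceramide, lay between 12.4 and 22.96 CPM, and Fa2h, which hydroxylates its fatty acid, between 12.4 and 21.3 CPM. Gal3st1, which adds the sulfate of sulfatide, and Aspa, which splits N-acetylaspartate, did not exceed 2.43 and 3.23 CPM. Qdpr, a dihydropteridine reductase, stood at 49.5, 41.1 and 47.5 CPM in DMSO replicates 1, 2 and 3 and 62.4, 55.7 and 50.2 CPM in the GSK-126 replicates of the same numbers. Each GSK-126 library was above each DMSO library, and the paired log2 fold change was 0.29 ± 0.10 (SE, n = 3 pairs, adjusted p = 0.103), which did not pass the test. It is given here for the lack of overlap. Enpp2, the autotaxin gene, stood at 180.2, 114 and 181 CPM in DMSO and 178, 83.8 and 176 CPM in GSK-126, Sirt2, a deacetylase of mature oligodendrocytes, at 133, 80.3 and 97.6 CPM in DMSO and 137, 90.9 and 106 CPM in GSK-126, and Plekhb1 at 33.2, 19.2 and 22.3 CPM in DMSO and 33.3, 17.99 and 23.9 CPM in GSK-126. All of these 3 were lowest in replicate 2 of both groups. Gpr37, an orphan receptor of maturing oligodendrocytes, lay between 1.40 and 8.42 CPM.

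The 2 untested members were near 0. Opalin, a membrane protein of mature oligodendrocytes, had 5 and 3 counts in DMSO replicates 1 and 2 and 0 in the other 4 libraries. Trf, the transferrin gene, had between 0 and 11 counts. However, 2108 of its 3320 exon bases are shared with Gm20425, a gene model on the same strand, and reads in shared exons can be set aside as ambiguous, so the level of Trf is uncertain. Opalin shares no exon with another gene.

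Levels were compared between members per kilobase of exon, in DMSO (mean ± SD, n = 3). Cldn11 was highest at 78.8 ± 48.9 CPM per kb. Mbp (29.3 ± 12), Enpp2 (27.4 ± 6.63), Qdpr (25.8 ± 2.45), Cnp (24.7 ± 6.61), Sirt2 (20.6 ± 5.36) and Cnksr3 (20.6 ± 7.34) followed, with neighbours in this order closer than their SD. Pdgfra stood at 9.70 ± 2.83 CPM per kb, C1ql1 at 6.90 ± 2.06, Lhfpl3 at 4.29 ± 2.37 and Cspg4 at 2.03 ± 0.547. The late genes Mog (5.34 ± 1.54), Mobp (1.86 ± 0.669), Ermn (0.512 ± 0.0748), Aspa (0.256 ± 0.251) and Opalin (0.0969 ± 0.0979) were far below Mbp. The exon length of Mbp joins exons of both of its transcript families, which lowers its value per kb.

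**Figure D2:**
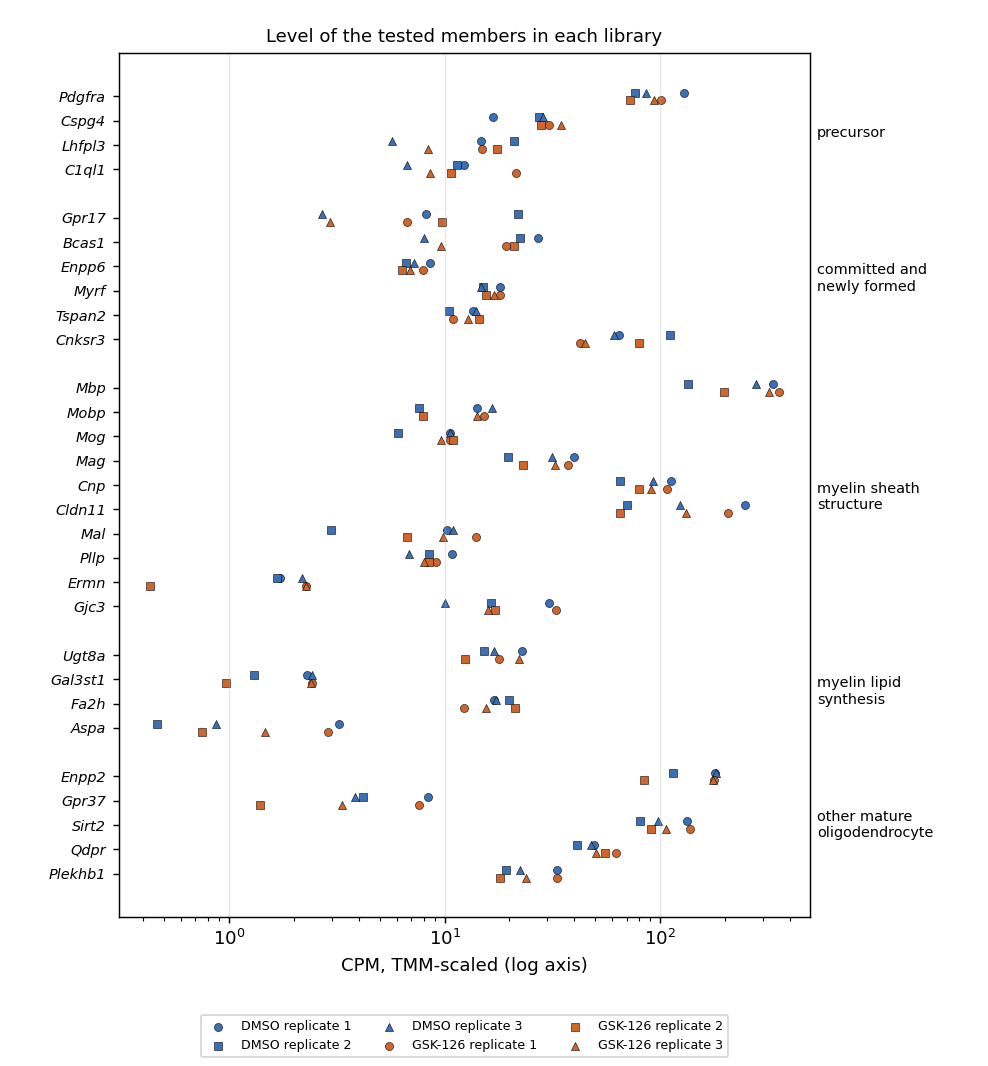
Level in CPM (log axis) of each of the 29 tested members, by role, with 1 point per library: blue for DMSO, orange for GSK-126, and the symbol for the replicate number. Points of the same symbol lie closer together than points of the same color for many genes, and the squares of replicate 2 are leftmost for Mbp, Mag, Cnp and Cldn11.

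More members differed between the replicate numbers than between the treatments. A test of the replicate number in the paired fit, added after the data had been seen, called 18 of the 29 tested members (62.1%), beside 31.4% of all genes, where the test of the treatment in the same fit had called 2. By role it called 3 of 4 precursor genes, 3 of 6 committed-stage genes, 7 of 10 sheath genes, 1 of 4 lipid genes and 4 of 5 other mature genes. What libraries of the same number shared (a preparation of cells, a day or a sequencing run) is not given in the labels and cannot be told apart.

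Most myelin genes were lowest in replicate 2. Of the 14 tested sheath and lipid genes, 10 had their lowest level in replicate 2 of both DMSO and GSK-126, as had 24.2% of all genes tested. In contrast, 2 (Pllp and Gjc3) were lowest in replicate 3 of both groups, and 1 (Fa2h) was highest in replicate 2 of both. By edgeR, the replicate number was called for 8 of the 14, beside 31.4% of all genes. Among the 10, it was not called for Ermn, Gal3st1 and Ugt8a (adjusted p = 0.333, 0.214 and 0.0812). On the log2 scale, replicate 2 differed from replicate 1 by -1.74 for Cldn11 (adjusted p of the replicate number over all 3 replicates = 9.59e-10), -1.07 for Mbp (3.99e-07), -0.85 for Mag (0.00064) and -0.61 for Cnp (0.000746), all by edgeR. The spread of Cldn11 between replicate numbers was much wider than its paired difference between treatments. The astroglial markers lay in the same order, with a sum of 8578, 2874 and 4790.5 CPM in DMSO and 8878, 2756 and 4763 CPM in GSK-126: 11 of 11 were highest in replicate 1 and 10 of 11 lowest in replicate 2 of both groups, with none at 0. Over all genes tested, 19.5% were highest in replicate 1 of both groups. The part of astroglia in the myelin values was not tested.

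Some genes of the committed stage and some lineage factors had another order. Of the 6 committed-stage genes, 2 (Gpr17 and Cnksr3) were highest in replicate 2 and 2 (Gpr17 and Bcas1) lowest in replicate 3 of both groups, while Enpp6 was highest in replicate 1 and lowest in replicate 2, and Myrf highest in replicate 1. By edgeR, the replicate number was not called for Enpp6 or Myrf (adjusted p = 0.563 and 0.557). Each p that follows is the adjusted p of the replicate number over all 3 replicates, not of the single difference it stands beside. Gpr17 was higher in replicate 2 than in replicate 1 by 1.02, and replicate 3 differed from replicate 1 by -1.45 (p of the replicate number = 1.74e-05). The latter difference was -1.39 for Bcas1 (5.45e-05) and -1.09 for Lhfpl3 (0.000176). Of the 17 tested regulators outside the set, 6 were highest in replicate 2 of both groups, 5 lowest in replicate 3, 4 highest in replicate 1 and 4 lowest in replicate 2. Over all genes tested, 19.5% were highest in replicate 1 and 24.2% lowest in replicate 2 of both groups. The shares highest in replicate 2 or lowest in replicate 3 were not computed. The counts of regulators and of committed-stage genes are therefore descriptions only. The factors Sox10 and Olig2, chosen after their values were seen, were highest in replicate 2 and lowest in replicate 3 of both groups, at 9.69, 10.7 and 2.69 CPM in DMSO and 5.23, 10.1 and 2.14 CPM in GSK-126 for Sox10 and 7.96, 11.6 and 4.08 CPM in DMSO and 12.4, 15.5 and 4.54 CPM in GSK-126 for Olig2 (p of the replicate number = 0.000131 and 0.000193). Sox8, Sox6 and Id4 instead followed the order of Mbp, Mag, Cnp and Cldn11, highest in replicate 1 and lowest in replicate 2 of both groups. For these 3 regulators, replicate 2 differed from replicate 1 by -0.97, -0.84 and -1.68 (p of the replicate number = 0.0153, 0.000531 and 5.44e-09). The precursor receptor gene Pdgfra was highest in replicate 1 and lowest in replicate 2 of both groups, and replicates 2 and 3 differed from replicate 1 by -0.62 and -0.35 (p of the replicate number = 0.000959). The markers of fibroblasts and meninges, where Pdgfra is also used, had a sum of 7495, 7924 and 9884 CPM in DMSO and 9054, 8252 and 10603 CPM in GSK-126, lowest in replicate 1 of DMSO and replicate 2 of GSK-126, with none at 0. Marker by marker, 6 of the 8 were lowest in replicate 2 of both groups, as Pdgfra was, and 1 was highest in replicate 1 of both. Their part in the Pdgfra values was not tested.

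**Figure D3:**
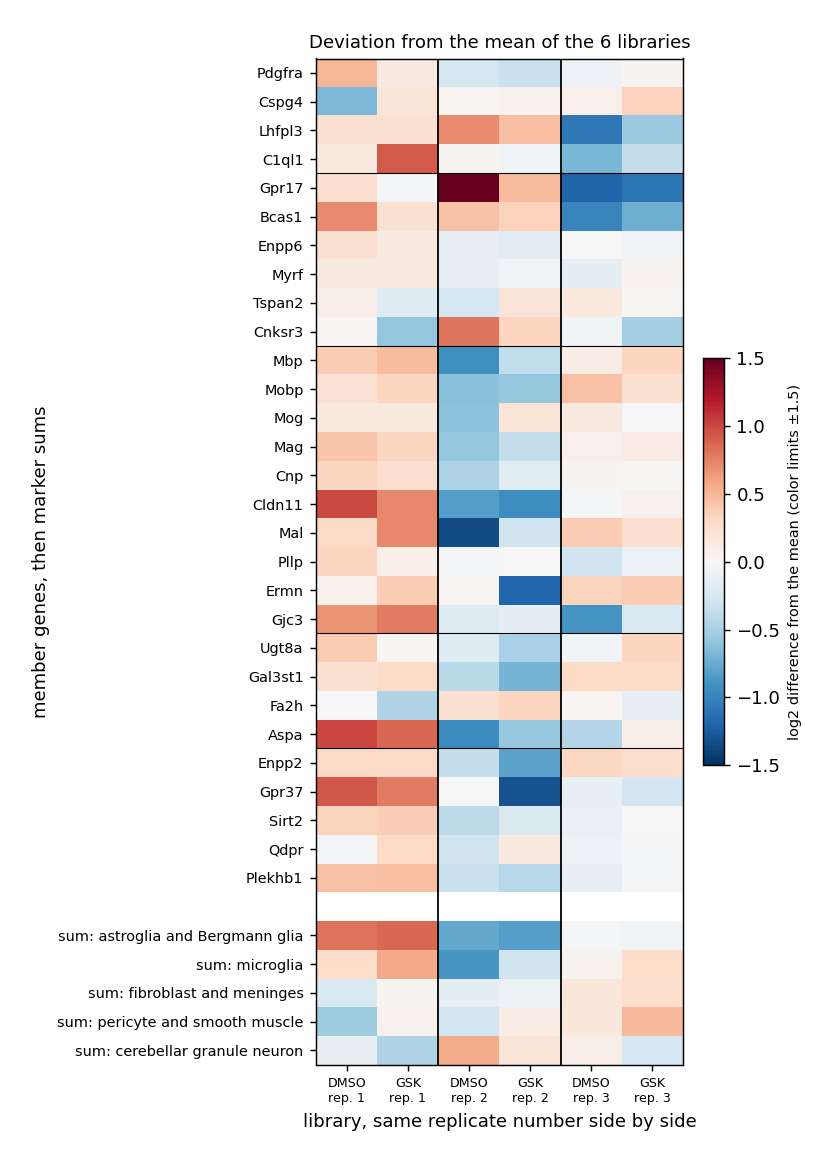
Difference of each library from the mean of the 6 libraries, on the log2(CPM + 0.5) scale, for the 29 tested members (rows, with lines between roles) and, below, the log2 of the summed CPM of 5 marker lists. Libraries of the same replicate number stand side by side, with GSK for GSK-126. Most myelin rows are blue in replicate 2, as is the astroglial sum, and Gpr17, Bcas1 and Lhfpl3 are blue in replicate 3.

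Precursor genes were set against myelin genes by their sums, which are a description with no test. The 4 precursor members summed to 173, 136 and 127 CPM in DMSO replicates 1, 2 and 3 and 167, 129 and 145 CPM in the GSK-126 replicates, a mean within-pair log2 ratio of 0.023 ± 0.15 (SD, n = 3 pairs). Pdgfra made up most of this sum, and without it the mean was 0.28 ± 0.35 (SD, n = 3 pairs). The 15 sheath and lipid members summed to 857, 371 and 618 CPM in DMSO replicates 1, 2 and 3 and 825, 452 and 676 CPM in the GSK-126 replicates, a mean log2 ratio of 0.12 ± 0.17 (SD, n = 3 pairs). Without Mbp it was 0.0058 ± 0.14 (SD, n = 3 pairs). In each case the spread between pairs exceeded the mean. Per kb of exon, myelin exceeded precursor sums by 9.16, 4.18 and 9.33 times in DMSO and by 7.15, 5.13 and 8.31 times in GSK-126. The ratio went down with GSK-126 in pairs 1 and 3 and up in pair 2, and replicate 2 was the lowest of both groups. It sets a sum over 15 genes against a sum over 4, so its size also depends on the number of genes. In DMSO, Cldn11 alone averaged 78.8 CPM per kb, beside myelin sums of 250, 101 and 161 CPM per kb. The ratio without Cldn11 was not taken.

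**Figure D4:**
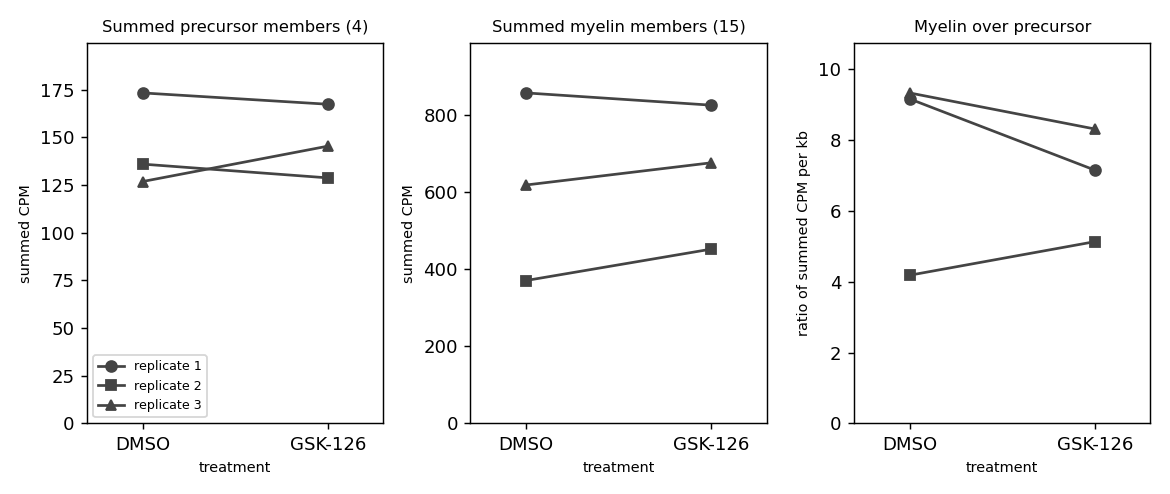
Summed CPM of the 4 precursor members (left), summed CPM of the 15 myelin sheath and lipid members (middle) and the ratio of the myelin to the precursor sum per kb of exon (right), in DMSO and GSK-126. Lines join the libraries of each replicate number. The 3 lines do not slope the same way in any panel.

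The wider lineage was described by 67 further genes in 5 lists, of which 63 were tested. Without pairing, 0 were called, and 2 had an unadjusted p under 0.05. With the block, 5 (7.94%) were called higher and 7 (11.1%) lower, beside 3.35% and 5.09% of all genes. DESeq2 with the block called 5 of these 12: Lingo1, Nfasc, Apod, Edil3 and Ndrg1. Of the 17 regulators tested, the HLH inhibitors Id2 and Id4, which hold precursors undifferentiated, rose, with log2 fold changes of 0.45 ± 0.097 (SE, n = 3 pairs, adjusted p = 0.00536) and 0.33 ± 0.091 (adjusted p = 0.0285). Id2 lay between 153 and 304 CPM and Id4 between 29.6 and 123 CPM, where the lineage factor Olig2 did not exceed 15.5 CPM. The part of other cells in the Id2 and Id4 values was not tested. The zinc finger gene Myt1 and the homeobox gene Prox1, both also used by neurons, fell by 0.28 and 0.33 on the log2 scale (adjusted p = 0.0305 and 0.0287). Olig1, Olig2, Sox10 and Nkx2-2, the factors that define the lineage, gave adjusted p values with the block from 0.217 to 0.931 and were not called. The call of Id2 was lost without pair 2 (adjusted p = 0.0626), that of Id4 without pair 1 or pair 2 (0.264 and 0.0557), and those of Myt1 (0.334 and 0.129) and Prox1 (0.302 and 0.0991) without pair 1 or pair 3. DESeq2 with the block called none of these 4 (adjusted p = 0.227 for Id2, 0.0848 for Id4, 0.0752 for Myt1 and 0.107 for Prox1). With the block, edgeR also lost Myt1 and Prox1 with upper-quartile factors (0.0612 and 0.0528) and with total counts (0.0688 and 0.0596).

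Of the 10 tested signals to precursors, the Notch ligand gene Jag1 was called higher, and Lingo1, an inhibitor of differentiation, and Tnr, the tenascin R gene, lower. For these calls and those of the next 2 lists, the share of all genes called with the block was 3.35% higher and 5.09% lower. Tnr had the largest of these differences, -1.17 ± 0.22 (SE, n = 3 pairs, adjusted p = 0.00195), from 25.3, 108 and 22.2 CPM in DMSO and 22.6, 25.8 and 9.88 CPM in GSK-126, where DMSO replicate 2 stood above the rest. Without pair 2 it was -0.60 (adjusted p = 0.129), and DESeq2 with the block did not call it (adjusted p = 0.211). Jag1 changed by 0.35 and Lingo1 by -0.27 on the log2 scale (adjusted p = 0.0412 and 0.0281). Both calls were lost without pair 1 (0.246 and 0.177) and without pair 3 (0.173 and 0.204). That of Jag1 was also lost by DESeq2 with the block (adjusted p = 0.127), and that of Lingo1 by edgeR with the block and upper-quartile factors (0.0549) or total counts (0.0615). The PDGF ligand genes Pdgfa, Pdgfb, Pdgfc and Pdgfd were not called, and Pdgfa, the main ligand of the precursor receptor, stood at 25.1, 21.9 and 30.8 CPM in DMSO and 30.8, 32.8 and 28.7 CPM in GSK-126. Among 7 tested precursor markers, Sema5a, a semaphorin gene, fell, with a log2 fold change of -0.52 ± 0.14 (SE, n = 3 pairs, adjusted p = 0.0234), and this call was lost without pair 2 (adjusted p = 0.27) and by DESeq2 with the block (adjusted p = 0.108). Among 9 markers of newly formed cells, Nfasc, whose neuronal form anchors nodes of Ranvier, fell, with a log2 fold change of -0.27 ± 0.07 (SE, n = 3 pairs, adjusted p = 0.0171). It was lost with any 1 pair left out, at adjusted p values from 0.0615 to 0.0801.

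Of 20 further genes of mature oligodendrocytes, 2 were called higher and 1 lower with the block, beside 3.35% and 5.09% of all genes. Ndrg1, a stress-responsive gene, stood at 63.8, 19.02 and 80.7 CPM in DMSO and 97.4, 34.03 and 106 CPM in GSK-126 and rose by 0.59 ± 0.1 on the log2 scale (SE, n = 3 pairs, adjusted p = 0.000651). Edil3, an integrin ligand, stood at 72.8, 65.5 and 73.3 CPM in DMSO and 90.3, 99.1 and 92.8 CPM in GSK-126, with each GSK-126 library above each DMSO library, and rose by 0.42 ± 0.088 (adjusted p = 0.00452). Apod, a lipid-binding lipocalin that fibroblasts also make, stood at 431, 74.3 and 248 CPM in DMSO and 347, 59.6 and 161 CPM in GSK-126 and fell by 0.42 ± 0.08 (adjusted p = 0.00184). These 3 calls held with any 1 pair left out and by DESeq2 with the block. All 3 genes are also used by other cell types. Hapln2, a link protein of nodes, Klk6, a protease, and the connexin gene Gjb1, which mark mature oligodendrocytes more closely, were not called and did not exceed 1.83, 3.87 and 5.54 CPM.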

How the data were processed

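RNA of 3 DMSO and 3 GSK-126 cultures was measured by sequencing of polyadenylated RNA. The deposited files hold raw read counts per gene over exons, which the authors made with Trimmomatic 0.38, STAR 2.7.2b on mm10 and HTSeq with GENCODE genes; the strand setting and the treatment of ambiguous reads are not given in the sources used here. The 5 lines per table that name no gene (58.7% to 60.7% of listed reads) were left out. Depth was 7407189 to 13092763 counts on genes per library. Groups came from the labels.

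The counts were tested with edgeR 4.0.16 in R 4.3.3 (filterByExpr, TMM, quasi-likelihood, Benjamini-Hochberg over 16729 genes), without a block and, as an alternative, with the replicate number as a block. The deviations of same-numbered libraries from their group means correlated at 0.586, 0.663 and 0.513, so the numbers pair the libraries. SE is the size of the log2 fold change divided by the root of its F value, and intervals use the moderated degrees of freedom. DESeq2 1.42.0, other scalings and filters, and left-out libraries were alternatives. No 2 libraries agreed within sampling noise. By the study's methods a replicate is CGNs from pooled litters. Without the block, p-values of the treatment are set against the spread between these replicates. With the block, they are set against the spread left once the replicate number is taken out, that is, of the differences within pairs. Scripts were tested on simulated data. Exon lengths and positions are of GENCODE M21 (GRCm38), and all 31 symbols matched.

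The members and lists were chosen with earlier results of these data known. Every member is accounted for; those called in either fit, with Pdgfra, Cspg4, Mbp, Mog, Mag and Cnp, are given in full, and from each lineage list at most 4 genes called with the block are named.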

Additional observations from a re-analysis of the deposited data

How the results depend on the processing

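Without a block, 0 members were called higher and 0 lower, and this held under DESeq2, an adjusted p under 0.01, each library left out, the other scalings (total counts, upper-quartile factors) and the other filters (none, or a minimum of 10 counts in each library). With the replicate block, 1 was called higher and 1 lower; the same numbers came from DESeq2 with the block, from the block without pair 1, and, in alternatives chosen after seeing the data, from the block with upper-quartile factors, with total counts or with no filter. The block without pair 2 called 0 higher and 1 lower (Mbp lost). The block without pair 3 called 2 higher and 2 lower, with Qdpr and Gpr17 added. The block at an adjusted p under 0.01, also added later, called 0 higher and 1 lower.

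The median log2 fold change of the tested members was -0.015, ranged from -0.11 to 0.18 with 1 library left out, and was 0.083 with the block without pair 1. The log2 ratio of the summed precursor CPM, 0.023, was 0.20 in pair 3 alone, 0.18 as a mean over genes and 0.28 without Pdgfra, its most abundant member. That of myelin, 0.12, was -0.055 in pair 1 alone and ranged from -0.20 to 0.40 with 1 library left out.

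With 1 library left out and no block, log2 fold changes ranged from -0.27 to 0.15 for Pdgfra, -0.064 to 0.51 for Mbp, -0.023 to 0.33 for Mog, -0.19 to 0.29 for Mag, -0.14 to 0.25 for Cnp, -1.22 to 0.27 for Gpr17, -0.57 to 0.49 for Cldn11, -0.17 to 0.81 for Id4 and -1.17 to 0.25 for Apod, so each changed sign. With the block, Pdgfra was 0.046 and Cldn11 0.0091 without pair 1, and Mog was -0.065, Mag -0.022 and Cnp -0.042 without pair 2. The cause was not tested. Depth limits Opalin, Trf, Ermn, Gal3st1 and Aspa, whose intervals are wide or could not be given.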
